A study of Nicrophorus vespilloides with 60 samples.

Results

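Larvae of the burying beetle Nicrophorus vespilloides are normally fed and defended by their parents on a small carcass, but they can also feed themselves. When parents are absent for many generations, a beetle population can change in how its larvae grow and behave without care. A gene's level can differ between populations in the same direction whether or not the present larvae had care. Such a pattern does not exclude an effect of the larva's own rearing. The 80 genes described here were chosen for that pattern, from 13761 genes counted in heads of first-instar larvae.

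The larvae came from generation 30 of experimental populations kept with full parental care (FC_POP, lines F1 and F2) or with no post-hatching care (NC_POP, lines N1 and N2). Each population was reared in both environments: parents were left with the brood (FC_ENV) or removed 53 h after pairing (NC_ENV), and heads were taken at 80 h. Each RNA-seq library held 4 pooled heads of 1 family, giving 46 libraries: 12 of FC_POP in FC_ENV, 11 of FC_POP in NC_ENV, 11 of NC_POP in FC_ENV and 12 of NC_POP in NC_ENV. Lines F1 and N1 formed block 1 and lines F2 and N2 formed block 2, bred 1 week apart, so that a block is also a pair of lines and the block and those lines cannot be told apart. All the families of a population descend from only 2 lines. If each line is taken as 1 value, 2 lines against 2 can give no two-sided exact p below 0.333, so the spread quoted below is the spread among families. Total counts ran from 102719698 to 145666277 per library, with a median of 115258788.

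The members were chosen on the log2(CPM + 1) scale, where CPM is a gene's count for every 1000000 counts in the library. The mean of NC_POP minus the mean of FC_POP was taken in each block and environment, giving 4 differences per gene. All 4 had to have the same sign, the mean CPM had to lie from 1 to 500, and the environments had to differ by less than 0.3. Of 1886 genes with 4 differences of the same sign, 828 met the other limits, and the 80 with the largest values of their smallest absolute difference became members. The population differences below are therefore what chose the genes, and they are given as a description with no test. All 80 members passed the filter on low counts that left 11777 genes for the tests.

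Of the members, 49 were higher and 31 lower in NC_POP. Among the 828 ranked genes, 68.0% were higher in NC_POP, against 61.25% of the members. This split depended on the scaling: with CPM taken from TMM library sizes (trimmed mean of M values, edgeR's scaling), 38 of the 80 genes chosen were higher in NC_POP. The first member, gene1222, had a smallest difference of 0.77, and the median member had 0.17. Only 4 members, gene1222, gene860, gene275 and gene74, had a smallest difference over 0.5, and 16 had one over 0.25. The last gene inside the list, gene10717, had a smallest difference of 0.1262, and the first outside it, gene2605, had 0.1258, so the edge of the list is a cut through a continuous series. No member differed by 1 or more in all 4 comparisons.

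**Figure D1:**
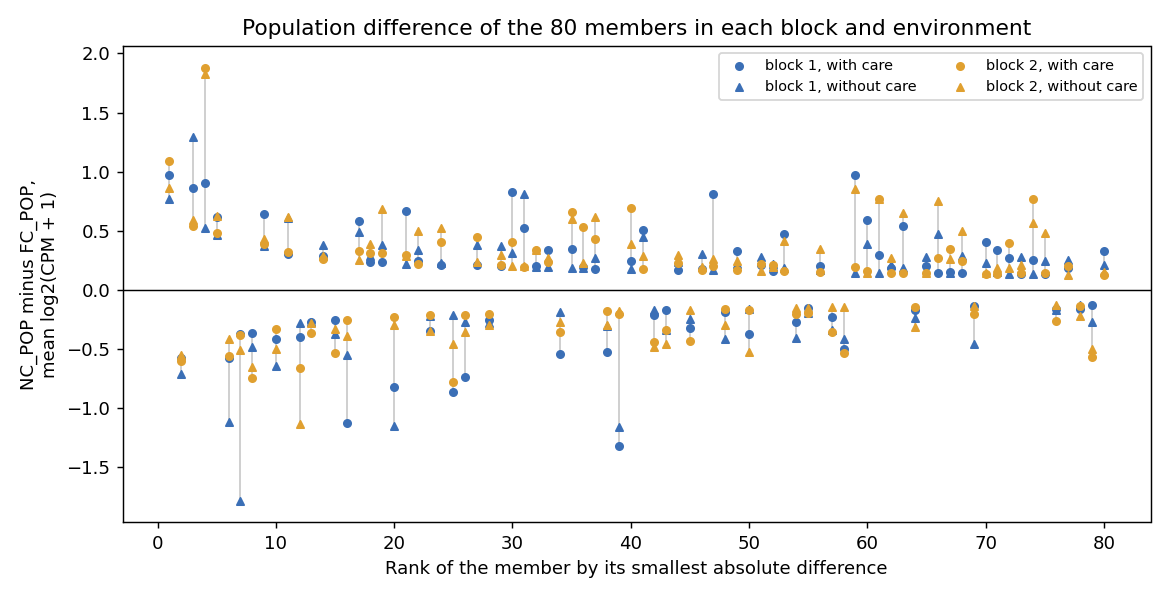
Difference between populations, NC_POP minus FC_POP in mean log2(CPM + 1), for the 80 members in order of rank, with 1 point for each block and environment and a grey line from the lowest to the highest of the 4. The 49 members above 0 were higher in NC_POP and the 31 below 0 were lower, and the smallest difference falls from 0.77 to 0.25 within the first 16 ranks and more slowly after them.

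The files name genes by number and carry no gene names. Only 82 genes are paired with a product by the study, and among the members these are gene1222, a coiled-coil domain-containing protein 12, which in human is a component of the spliceosome, and gene7279, an axonemal dynein heavy chain 8, a motor subunit of cilia and flagella. The other 78 members are given by number, with no role, and markers of the head could not be checked for the same reason. Pooled heads are bulk samples, so fewer cells of a type and less RNA per cell cannot be told apart.

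The clearest difference was that of gene1222. Its level in FC_POP ran from 2.84 to 10.7 CPM with a median of 6.23, and in NC_POP from 5.68 to 21.7 CPM with a median of 13.2. The mean was 6.40 ± 2.09 CPM (SD, n = 23) in FC_POP and 13.2 ± 4.02 CPM (SD, n = 23) in NC_POP, 2.07-fold higher. In NC_POP, 17 of 23 families lay above every FC_POP family, and 22 of 23 above the FC_POP median. The overlap held the other 6 NC_POP families and the 14 FC_POP families above the lowest NC_POP value. The 4 differences of gene1222 were 0.97 in block 1 with care, 0.77 in block 1 without care, 1.09 in block 2 with care and 0.86 in block 2 without care. It was the only member whose difference was more than 2 times the pooled SD among families, and leaving out any 1 library moved its smallest difference only between 0.68 and 0.86.

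Gene860 was the highest ranked member in the other direction. Its level in FC_POP ran from 18.9 to 49.5 CPM with a median of 29.6, and in NC_POP from 10.3 to 35.6 CPM with a median of 21.9. Means were 31.7 ± 8.12 CPM in FC_POP and 21.1 ± 6.54 CPM in NC_POP (SD, n = 23 each). The ranges overlapped, with 10 NC_POP families below every FC_POP family. Its 4 differences were close to each other, from -0.55 to -0.71.

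Gene1722 behaved in a like way at a higher level, with 50.0 to 132.1 CPM in FC_POP (median 82.4) and 37.9 to 94.4 CPM in NC_POP (median 52.5). Its means of 87.0 ± 27.03 and 53.6 ± 12.3 CPM (SD, n = 23 each) differed 1.62-fold, and 10 NC_POP families lay below all FC_POP families. Families of NC_POP were also closer to each other for this gene than families of FC_POP. The difference was -1.12 in block 1 without care and between -0.42 and -0.58 in the other 3 comparisons.

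Among the leading members, 5 others higher in NC_POP had means 1.25-fold to 1.49-fold above those of FC_POP, with wide overlap between the families. Gene6415 ran from 4.67 to 13.7 CPM in FC_POP (median 7.28) and from 6.78 to 13.7 CPM in NC_POP (median 11.5), and 21 of 23 NC_POP families were above the FC_POP median, although the highest values of both populations coincided. Gene2928 ran from 4.84 to 12 CPM in FC_POP (median 7.72) and from 6.04 to 14.7 CPM in NC_POP (median 10.3). Here too 21 of 23 NC_POP families were above the FC_POP median, and 7 were above every FC_POP family. Gene7267 had means of 9.82 ± 3.46 CPM in FC_POP and 14.6 ± 7.01 CPM in NC_POP, with its highest NC_POP value, 35.8, in an N1 family without care. Gene10573 had means of 12.1 ± 2.75 CPM in FC_POP and 15.1 ± 2.90 CPM in NC_POP, with 8 NC_POP families above all of FC_POP. Gene11083 was a low member, at 2.78 ± 1.11 CPM in FC_POP and 3.92 ± 0.87 CPM in NC_POP (SD, n = 23 each for these means), and only 1 NC_POP family lay beyond the FC_POP range.

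**Figure D2:**
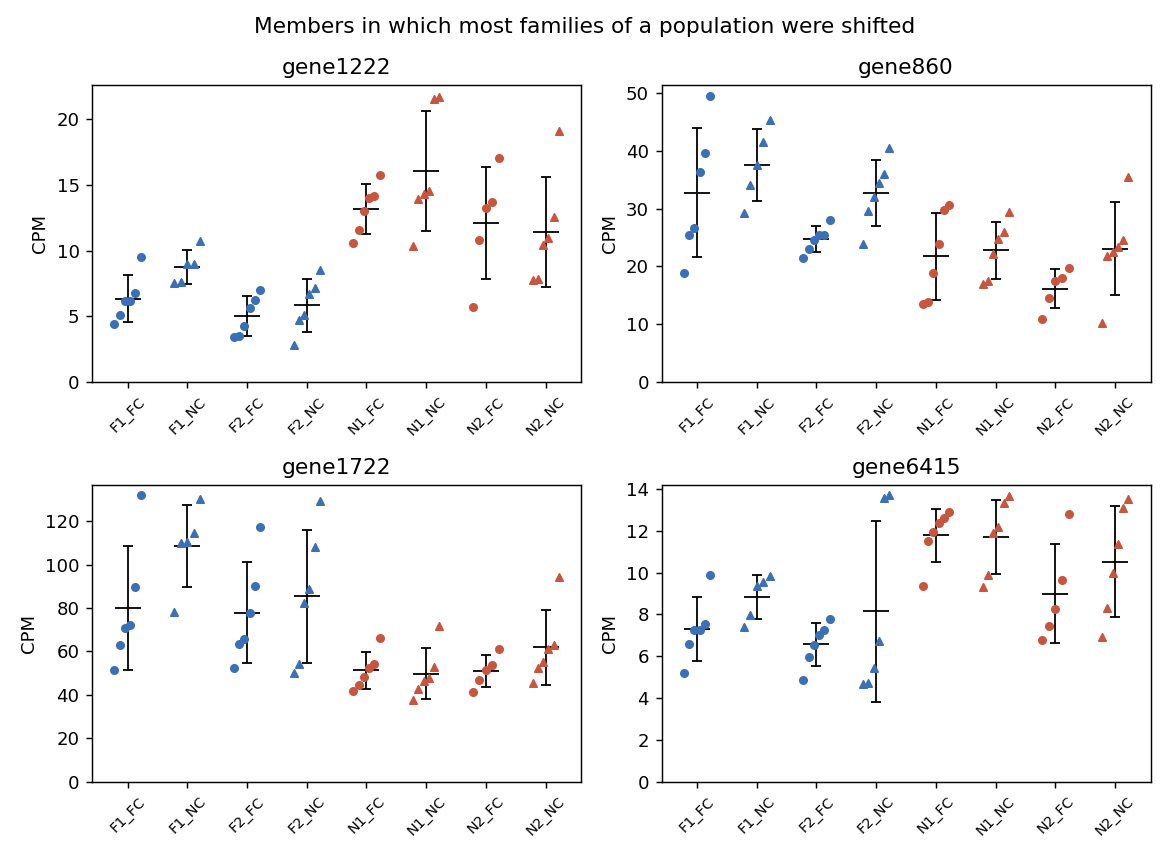
CPM of gene1222, gene860, gene1722 and gene6415 in each library, by line and environment (FC with care as circles, NC without care as triangles), with FC_POP in blue and NC_POP in red; black bars give the mean and SD of a line in an environment. For gene1222, 17 of the 23 NC_POP families lie above every FC_POP family, whereas for gene6415 the highest values of both populations coincide at 13.7 CPM.

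Among members lower in NC_POP, gene12051 had 2.76 to 14.9 CPM in FC_POP (median 5.86) and 1.88 to 10.5 CPM in NC_POP (median 3.97), with 20 of 23 NC_POP families below the FC_POP median. Gene9964 was low throughout, with 0 to 5.42 CPM in FC_POP (median 1.58) and 0.191 to 1.81 CPM in NC_POP (median 0.771). No NC_POP family of gene9964 lay below the FC_POP range, since the lowest value, 0, was in an FC_POP family of line F1 without care. Gene1873 had means of 33.6 ± 9.59 CPM in FC_POP and 27.1 ± 6.62 CPM in NC_POP, and gene11648 had means of 12.3 ± 4.35 and 9.20 ± 2.93 CPM (SD, n = 23 each). These shifts were 1.24-fold and 1.34-fold, and in both genes most families of the populations shared the same range.

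In several members the difference was uneven among families or rested on few of them. Gene74 had the largest mean difference of all members, 1.26 on the log2(CPM + 1) scale. In FC_POP its level stayed between 2.22 and 12.2 CPM (median 6.01), whereas in NC_POP it ran from 1.95 to 62.3 CPM (median 13.5). Of the 23 NC_POP families, 14 exceeded every FC_POP family, and the other 9 lay in the FC_POP range or below it. The lowest value of all was in an N1 family with care, the same line and environment that held the highest. Line N1 without care reached no more than 13.5 CPM, while N2 reached 53.4 CPM with care and 51.3 CPM without.

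Gene275 showed a wide spread in both populations, from 4.76 to 147.7 CPM in FC_POP (median 40.8) and from 23.4 to 301.3 CPM in NC_POP (median 90.3). The mean was 57.1 ± 35.9 CPM in FC_POP and 104.2 ± 72.5 CPM in NC_POP (SD, n = 23 each), 1.83-fold higher. Its place among the leading members rested on 1 library: family F2_31 held the lowest value of the F2 line, and without it the 4 differences no longer had the same sign. Gene11442 had a median of 1.57 CPM in FC_POP and 1.20 CPM in NC_POP, close to each other, but some FC_POP families reached 5.03 to 8.85 CPM while no NC_POP family exceeded 3.13 CPM. Its smallest difference fell to 0.08 without family F1_06, which held the 8.85 CPM.

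Gene10138 varied widely among families, from 4.08 to 160.5 CPM in FC_POP (median 46.6) and from 7.34 to 106.5 CPM in NC_POP (median 30.2). No NC_POP family lay below the FC_POP range. The difference was -1.78 in block 1 without care and between -0.38 and -0.51 in the other 3 comparisons, and without family N1_27 its smallest difference was 0.009. Gene7427 was of the same kind, with 0.505 to 18.9 CPM in FC_POP and 0.294 to 25.2 CPM in NC_POP. Its families in line N1 without care reached no more than 5.24 CPM, while N2 held the highest value of all, and without family N2_07 its 4 differences no longer had the same sign.

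**Figure D3:**
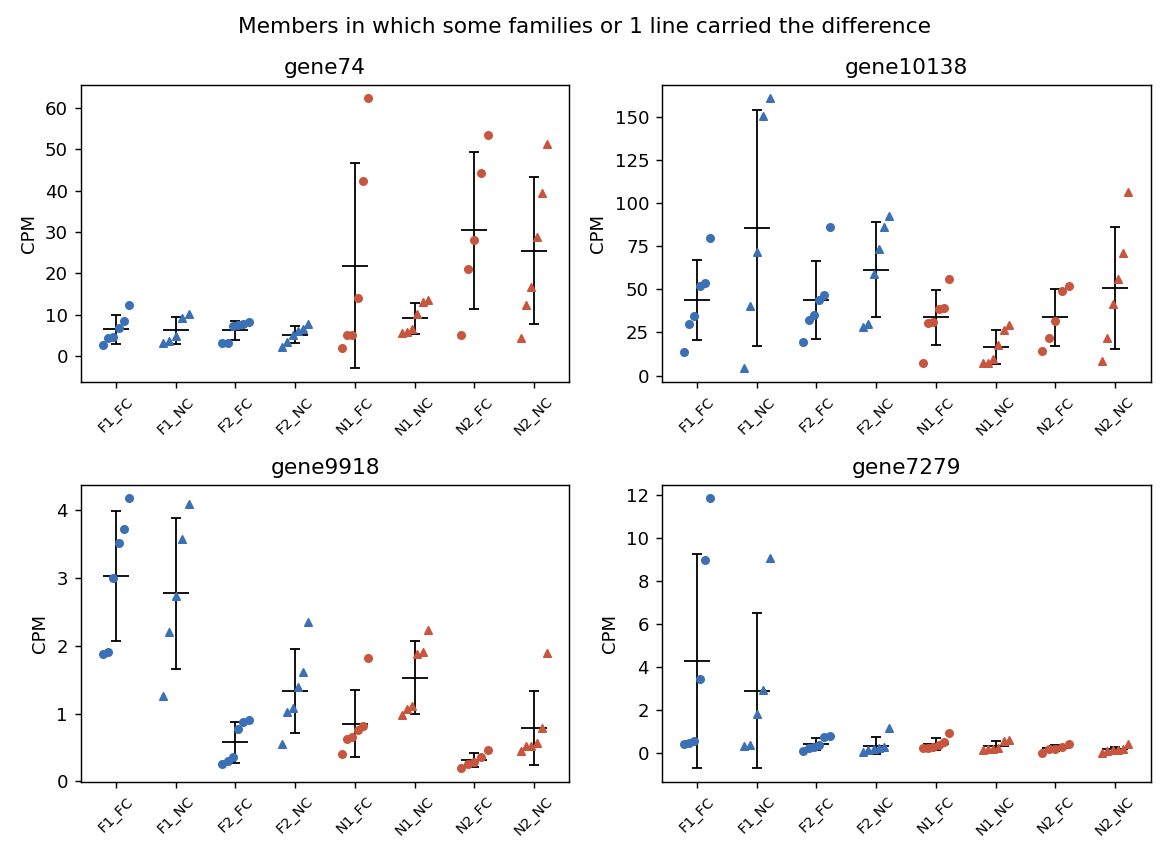
CPM of gene74, gene10138, gene9918 and gene7279 in each library, by line and environment, with the same symbols and bars as for gene1222. The highest 14 values of gene74 are all of NC_POP families, and gene7279 is above 1.14 CPM only in families of line F1.

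The dynein gene, gene7279, was high only in part of line F1. Among F1 families it ran from 0.415 to 11.9 CPM with care (n = 6) and from 0.308 to 9.06 CPM without (n = 5). In F2 it ran from 0.0876 to 0.788 CPM with care and from 0.0357 to 1.14 CPM without, and no NC_POP family exceeded 0.936 CPM. The mean of FC_POP was 1.94 ± 3.34 CPM and that of NC_POP 0.273 ± 0.216 CPM (SD, n = 23 each), 7.12-fold apart, yet the medians were 0.415 and 0.209 CPM. In NC_POP, 2 families were listed at 0. The differences in block 2 were -0.20 and -0.18, against -1.32 and -1.16 in block 1, and without family F2_47 the smallest was 0.03.

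Gene9918 was also highest in line F1, with 1.88 to 4.18 CPM with care and 1.26 to 4.09 CPM without. Line F2 had 0.254 to 0.901 CPM with care and 0.545 to 2.36 CPM without, line N1 had 0.407 to 1.82 and 0.983 to 2.23 CPM, and line N2 had 0.194 to 0.460 and 0.451 to 1.89 CPM. Line F1 stood above the rest, and the mean of F2 lay within those of the NC_POP lines, so gene9918 was the highest ranked member, at rank 16, in which line means did not separate the populations. The gene next to it in number, gene9919, is a heat shock 70 kDa protein 1A-like gene, a chaperone known for its rise under heat and other stress. It was no member, because its environments differed by 0.41, and it was looked up after the values of gene9918 were seen. Gene9919 ran from 28.5 to 58.7 CPM in F1 with care and from 15.6 to 66.3 CPM without care, and no family of the other lines exceeded 9.05 CPM. Its 4 differences were -3.66, -2.59, -0.67 and -0.43, in the same order as above.

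The separation of the lines can be read for the whole list. In 69 of 80 members, both NC_POP line means lay outside both FC_POP line means, 44 with NC_POP higher and 25 with NC_POP lower. The same order was found in 22.5% of the 11777 genes tested, but the rule asked for the same sign in each block, which 15.1% of the tested genes met, so nothing is read from this count. No member had populations without any overlap among the 46 libraries, and none had lines without overlap within block 1 or block 2. The corresponding shares over all tested genes were 0% for both blocks together, 0.034% in block 1 and 0.0255% in block 2.

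The size of the difference was set against the spread among families. It was more than the pooled SD in 38 of 80 members, with a median of 0.97 SD. The absolute difference over all libraries had a median of 0.32 in the members and 0.07 over all genes tested, as the choice by difference implies. The larger of the block values was in block 1 for 40 members and in block 2 for 40, and the larger of the environment values was with care for 37 and without care for 43. Within a member, the largest of its 4 differences was a median of 2.61 times the smallest. This ratio was under 2 in 23 members and over 4 in 16.

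The level was not confined to weakly counted genes. The mean CPM of a member ran from 1.02 to 406.6, with a median of 10.7: 25 members were between 1 and 5 CPM, 27 between 5 and 20, 22 between 20 and 100, and 6 above 100. Gene7542 was the most abundant, with 264.4 to 564.7 CPM in FC_POP (median 363.3) and 215.9 to 643.3 CPM in NC_POP (median 462.7). Its populations overlapped over nearly the whole range, but 21 of 23 NC_POP families were above the FC_POP median. Its 4 differences lay between 0.24 and 0.39. A value of 0 in any library was found for 4 members, 6 library values in all. Among them gene4519, singled out after its values were seen, was at 0 in 1 F1 family with care and from 5.07 to 10.04 CPM in the other 45 libraries.

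The spread itself was compared between populations. The rule used only means, but a few families far from the rest can shift a mean and raise an SD together. The spread is therefore not independent of the choice. The SD of log2(CPM + 1) was larger in FC_POP for 44 members and in NC_POP for 36, that is 55.0% larger in FC_POP against 50.5% over the 9387 genes of the same CPM range. Among members higher in NC_POP it was larger in FC_POP for 24 of 49, and among members lower in NC_POP for 20 of 31. These shares of 49.0% and 64.5% stand beside 48.2% and 53.6% of the genes of the same CPM range that were higher or lower in NC_POP. The FC_POP to NC_POP ratio of SDs had a median of 1.035 in members and 1.003 in the 9387 genes. It exceeded 2-fold toward FC_POP in 6 members and toward NC_POP in 3. Gene7279 (SD 0.97 in FC_POP, 0.21 in NC_POP) reached the limit of 1 CPM only through line F1. Nothing is read from these shares and ratios. Gene6239, singled out after its values were seen, had almost equal means of 31.7 and 34.2 CPM, with 2.16 to 63.0 CPM in FC_POP and 15.1 to 77.4 CPM in NC_POP, and its lowest values were all of FC_POP families.

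The block term was not among the differences that chose the members, since each of those was taken within a block, but the limit on mean CPM could let a gene in through a line in which it was high. A gene was called where edgeR's quasi-likelihood test gave p below 0.01 after Benjamini-Hochberg adjustment and the log2 fold change was 1 or more in size. Of the 80 members, 2 were called for block, 2.5%, against 0.263% of all genes tested. These were gene9918, with a log2 fold change of -1.41 (SE 0.21) for block 2 against block 1, and gene7279, with -2.05 (SE 0.50). Both were the genes high in line F1 described above, and both reached the limit of 1 CPM only through that line. The mean over all 46 libraries was 1.39 CPM for gene9918 and 1.11 CPM for gene7279, whereas over the 35 libraries outside F1 it was 0.916 and 0.306 CPM. Their block values are therefore a description, and nothing is read from the count of 2. The call for 1 of the 2 was lost without family F1_04 or family F2_43. In gene9918 line N1 was also above N2, with means of 0.850 and 0.310 CPM with care, and 1.53 and 0.789 CPM without. The neighbour gene9919 had a fitted block value of -1.63 (SE 0.31), but gene9919 was high only in line F1. Its means in lines N1 and N2 were 2.52 and 1.73 CPM with care, and 4.82 and 4.56 CPM without.

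Without the fold limit, 7 members passed for block, 8.75%, against 4.26% of all genes tested, with gene9918 and gene7279 among them. The other 5 were gene9043 at -0.60, gene9353 at -0.27, gene7002 at 0.75, gene7730 at 0.37 and gene1083 at 0.29 on the log2 scale, so 4 were lower in block 2, 5% against 1.68% of all genes tested, and 3 were higher, 3.75% against 2.58%. The median absolute block change was 0.16 in members and 0.14 over all genes tested. At an unadjusted p under 0.05 stood 31 members, 38.8%, against 26.5% of all genes tested. The counts of 7, 4 and 31 hold gene9918 and gene7279, which reached the limit of 1 CPM only through line F1. The genes tested were also not held to the limits of the rule, so nothing is read from these shares.

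**Figure D4:**
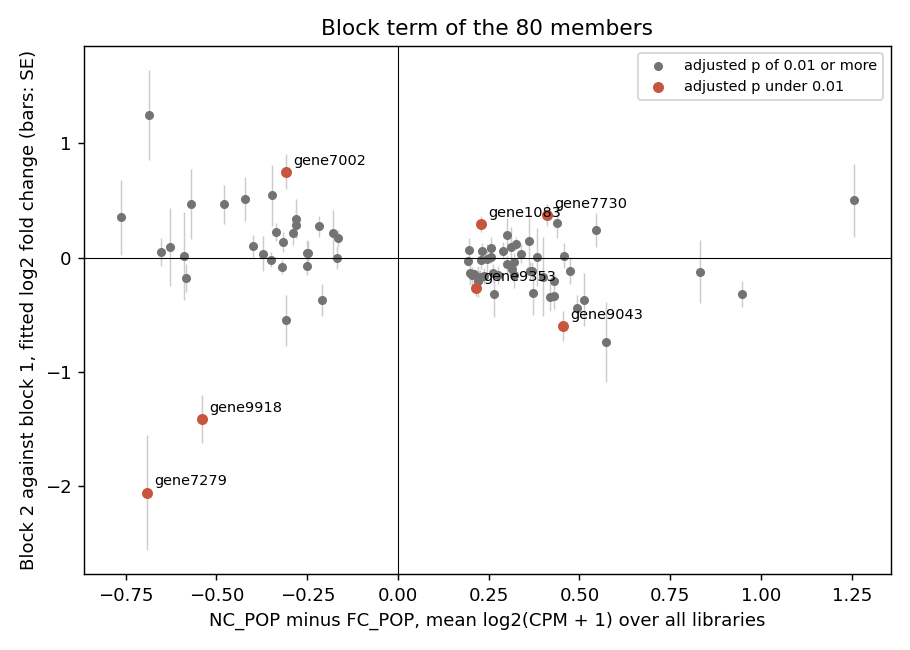
Fitted log2 fold change of block 2 against block 1 (vertical axis, bars are SE) against the NC_POP minus FC_POP difference in mean log2(CPM + 1) over all libraries (horizontal axis) for the 80 members. The 7 members with an adjusted p under 0.01 are named; gene9918 and gene7279 lie lowest, at -1.41 and -2.05.

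Fits of the contrasts that the rule used are given only as counts, and nothing is read from them. For population, 1 member, gene1222, was called with care, against 0.0425% of all genes tested. With care, 2 members passed without the fold limit, against 0.0849%, and 55 stood at an unadjusted p under 0.05, against 7.53%, while DESeq2 called 3. Without care edgeR and DESeq2 called 0 members, against 0.0849% in edgeR, with 6 passing without the fold limit, against 0.331%, and 56 at an unadjusted p under 0.05, against 16.6%. For environment, whose size the rule limited, edgeR called 0 members in FC_POP, against 7.06%, with 4 without the fold limit, against 34.8%, and 14 at an unadjusted p under 0.05, against 54%, while DESeq2 called 0. In NC_POP edgeR called 0 members, against 2.31%, with 4 without the fold limit, against 20.1%, and 13 at an unadjusted p under 0.05, against 44.2%, while DESeq2 called 1. For the interaction of population and environment edgeR and DESeq2 called 0 members, against 0% in edgeR, with 2 members at an unadjusted p under 0.05, against 7.98%. Within the limit, the environment difference ran from -0.30 to 0.29 and was positive, that is higher without care, in 54 of 80 members, 67.5%, against 48.5% of the ranked genes.

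Members varied together among families to a small extent. After the mean of each line and environment was removed, the residuals of 3160 pairs of members over 46 libraries had a median Pearson correlation of 0.04, and 24 pairs passed 0.7 in size. That is 0.76% of the pairs, against 2.50% of pairs of all genes of the same CPM range. The 19 positive pairs joined members of the same direction, and the 5 negative pairs joined members of opposite directions. The rule chose directions from means of these same families, so genes that vary together tend to be chosen in matching directions. Nothing is read from this agreement. The highest was between gene7542 and gene4101 (Pearson r = 0.85, Spearman rho = 0.88, and r = 0.83 without the 2 farthest libraries), followed by gene7542 and gene11998 (r = 0.84, rho = 0.84). Of the lower members, gene10138 and gene8931 rose and fell together (r = 0.83, rho = 0.76), and gene10138 ran against gene11998 (r = -0.77, rho = -0.77). Libraries share their total count, so these correlations are a description.

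Neighbours in the gene numbering were looked at for a shared difference. Numbers follow the order of the RefSeq records, which held for 82 of 82 genes that the study pairs with a product. Of 120 neighbouring genes with a mean of at least 1 CPM that were no members, 23 had 4 differences of the same sign. That is 19.2%, against 15.2% of all such genes. Of these 23, 17 had the direction of the member beside them. The directions are uneven, with 68.0% of the ranked genes higher in NC_POP. The share that would agree without any link was not computed, so nothing is read from the 17. The members held a single neighbouring pair, gene7541 and gene7542, both higher in NC_POP. Gene7541 ran from 0.876 to 3.77 CPM in FC_POP (median 1.94) and from 1.87 to 7.50 CPM in NC_POP (median 2.92). Its record overlaps that of the far more abundant gene7542, and in all 23 members have an overlapping neighbour record, so reads may be shared and these levels are uncertain. Gene3558, at 0.623 ± 0.546 CPM in FC_POP and 1.41 ± 0.802 CPM in NC_POP (SD, n = 23 each), lies by its record inside gene3557, which had a mean of 68.4 CPM.

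Membership was recomputed with each library left out. Between 62 and 74 of the 80 members stayed in the list, and 13 members stayed in all 46 repeats. In fewer than 23 repeats stayed 5 members, the lowest being gene10717, the last member, with 16 of 46. The list also depended on how it was made: 52 members stayed with TMM library sizes, 32 with medians in place of means, and 27 without the limit on the environment difference. Gene1222 stayed in all 46 repeats, gene275 in 45 and gene860 in 44.

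**Figure D5:**
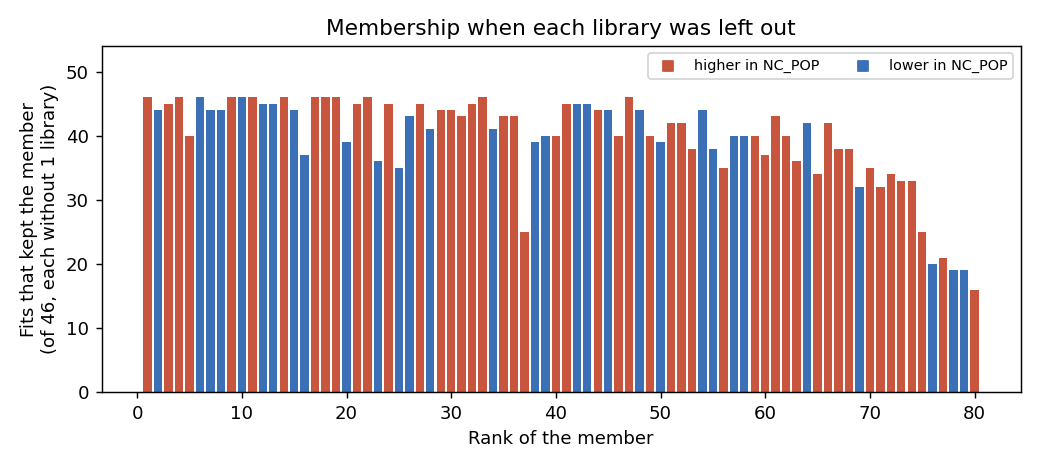
Number of the 46 repeats, each without 1 library, in which a member stayed among the first 80 genes, in order of rank, with members higher in NC_POP in red and those lower in blue. Counts fall from 46 for gene1222 to 16 for gene10717, the last member.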

How the data were processed

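RNA was measured in 46 libraries, each of 4 pooled heads of 1 family. The authors deposited 1 table of raw counts per gene, made by trimming reads with TrimGalore, mapping them with HISAT2 and quantifying with StringTie on the RefSeq annotation. No column was left without a sample. A further 14 bisulfite samples were not analysed here. Of the deposited counts from 1 to 100, 39.8% were multiples of 4, against the 25% of even spacing. Totals ran from 102719698 to 145666277 counts, and whether depth limited the members near 1 CPM was not tested. None of 110 library pairs within a line and environment held identical values (lowest chi-square per gene 233).

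CPM was counts divided by the column total and multiplied by 1000000. Groups and lines came from the labels, and blocks from the line numbers. Block, population, environment and interaction were fitted over the 11777 genes that reached 15 counts in 10% of libraries or more, in edgeR 4.0.16 (TMM, quasi-likelihood test, 4 groups plus block) on R 4.3.3, with Benjamini-Hochberg adjustment over all genes, an adjusted p under 0.01 and an absolute log2 fold change of at least 1. On simulated counts for the block contrast over 11777 genes, 193 of 200 genes changed by a log2 fold change of 1.5 were recovered, with 1 false call. Families were simulated as independent, with no line effect. Recovery of smaller changes, and errors from differences between lines, were therefore not tested. Alternatives were TMM scaling, a pseudocount of 0.25, other limits, medians, DESeq2 1.42.0, no filter, no fold limit and each library left out; leaving out the 3 libraries least correlated with the rest, and the alternatives for the order of line means, were chosen after seeing the data. Python 3.11.15 was used elsewhere.

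The genes named are the first 10 members in each direction, members that the study pairs with a product, the last member and the first gene outside, and neighbouring members. Others are said to be singled out. The members and lists were chosen with earlier results of these data known. The study's pairing of genes with products was used for names only.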

Additional observations from a re-analysis of the deposited data

Results flagged for a closer look

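Among 192 groups of 5 or 6 families (24 named genes in 8 lines and environments), 11 held 1 family whose gap to the others was above the Dixon limit, and chance flags about 1 in 20 groups. In F1 without care, family F1_06 was high for gene2928 (12 CPM, others 7.72 to 8.05) and for gene11442 (8.85 CPM, others 1.06 to 1.74). In N1 with care, family N1_29 was low for gene6415 (9.38 CPM, others 11.5 to 12.9) and high for gene9918 (1.82 CPM, others 0.407 to 0.820). In the same group, family N1_27 was low for gene10138 (7.40 CPM, others 30.2 to 56.1) and family N1_26 was high for gene10717 (13.2 CPM, others 11.2 to 11.7). In N1 without care, family N1_37 was low for gene11083 (3.10 CPM, others 4.48 to 5.44) and family N1_32 was high for gene1873 (46.2 CPM, others 21.9 to 27.3). In N2 without care, family N2_07 was high for gene9918 (1.89 CPM, others 0.451 to 0.780). In F2 with care, family F2_31 was high for gene3558 (1.39 CPM, others 0 to 0.376), and without care family F2_47 was high for gene7279 (1.14 CPM, others 0.0357 to 0.270).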

How the results depend on the processing

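Of the 80 members, 52 stayed with TMM library sizes, 27 without the limit on the environment difference, 32 with medians, 48 without the 3 libraries least correlated with the rest (N1_30, F2_34 and F2_27), 67 with a pseudocount of 0.25 and 55 with a mean CPM of 5 to 500, and the cause was not tested. Leaving out 1 library kept 62 (without F2_34) to 74 members. The number higher in NC_POP was 38 to 53 under these settings and 44 to 55 with 1 library left out. Both NC_POP lines lay outside both FC_POP lines in 69 to 71 members under other scalings and in 64 to 71 with 1 library left out, and no setting tried gave a member without overlap. For block, 7 members passed without a fold limit, 3 with DESeq2, and 1 to 2 with 1 library left out. For population with care, 3 passed with DESeq2, 2 without a fold limit and 1 to 2 with 1 library left out, and without care 6 passed with no fold limit. For environment, 4 passed in each population without a fold limit. In NC_POP, 1 passed with DESeq2's size factors or its Wald test, and 0 to 1 with 1 library left out. None of 1176 values of the difference over all libraries of single named genes changed sign, although 1 of the 4 differences did for gene275 without F2_31 and for gene7427 without N2_07, and 1 moved by more than the spread, gene3558, at 1.04 with a pseudocount of 0.25. No paired analysis was possible because the family labels do not pair families across groups.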
